A study of Mus musculus with 2 samples.

Results

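The plasma cells described here were 1258 cell barcodes of the 18975 kept from the old library, and 41378 barcodes were kept in the whole series. A barcode was kept with at least 500 genes detected and at most 10% of its unique molecular identifier (UMI) counts from mitochondrial genes. A plasma cell was a kept barcode with at least 20% of its UMIs from immunoglobulin genes (symbols beginning Igh, Igk, Iglc or Iglv) and at least 5 UMIs of Jchain, Mzb1, Derl3 and Xbp1 together. In the old library 6.63% of kept barcodes met both thresholds (exact binomial 95% interval 6.28 to 6.99%, which covers counting error only). In the adult library 0 of 22403 did, so the share was at most 0.0134% by a limit of 3 counts in 22403, or 0.0165% by the exact binomial upper bound.

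The old library came from long-bone marrow of old wild-type (WT) C57BL6 mice and the adult library from that of adult WT C57BL6 mice, with 1 library for each age. In both, the flushed marrow was digested with enzymes, red cells were lysed, blood-forming cells were depleted with magnetic beads, and the sorted live cells were captured in droplets for sequencing of the 3′ ends of polyadenylated RNA. The submitters label both libraries as stromal cells, and the plasma cells are blood-lineage cells that were found after the depletion step. How many mice were used, of which sex and exact age, and whether marrow was pooled, is not given in the sources used here. With 1 library per age there was no test between ages or between groups of cells, since cells of 1 library are not replicates.

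Plasma cells are the antibody-secreting end stage of the B cell lineage. The transcription factors Irf4, Prdm1 and Xbp1 establish them, B cell identity genes such as Pax5 are switched off, and the endoplasmic reticulum (ER) expands to fold, glycosylate and export immunoglobulin. In bone marrow, long-lived plasma cells lodge beside stromal cells that make Cxcl12, the ligand of their receptor Cxcr4, and depend on the ligands of the receptor Tnfrsf17 (BCMA).

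The old library held 229917243 UMIs in 22298 barcodes and the adult library 208637421 UMIs in 25635 barcodes. The plasma cells had a median of 34418 UMIs per cell (2394 to 148951) and 3803.5 genes, against 7402 UMIs and 3007 genes in the other 17717 kept barcodes of the old library. They were 6.63% of kept old barcodes but held 19.97% of the UMIs, and 12.0% of the UMIs outside immunoglobulin genes. Levels are therefore given as UMI counts per 1000000 non-immunoglobulin UMIs (CPM), summed over the cells of a group. Of the other 17717 barcodes, 13485 had at least 10 Cxcl12 UMIs (median 7984 UMIs) and are called Cxcl12 cells. Immunoglobulin RNA was found outside the plasma cells too, since 99.97% of kept old barcodes held Igkc, the kappa light chain constant region, against 0.366% of kept adult barcodes.

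Immunoglobulin took a median of 47.0% of a plasma cell's UMIs, and 72.0% at most. The Jchain, Mzb1, Derl3 and Xbp1 sum had a median of 110.5 UMIs. The 5 members nearest the threshold had immunoglobulin shares of 20.1, 20.2, 20.3, 20.7 and 20.8%, and the 5 nearest barcodes below it had 19.2, 19.2, 19.0, 18.6 and 18.5%. Only 27 old barcodes that met the marker minimum had a share from 10 to 20%. A further 4 old barcodes reached the share but not the marker minimum, and 21 met the rule but failed the gene or mitochondrial filter. No adult barcode came near the threshold, since the highest adult immunoglobulin share was 3.06%. The libraries had 152 barcode sequences in common, 6 of them among the plasma cells.

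**Figure D1:**
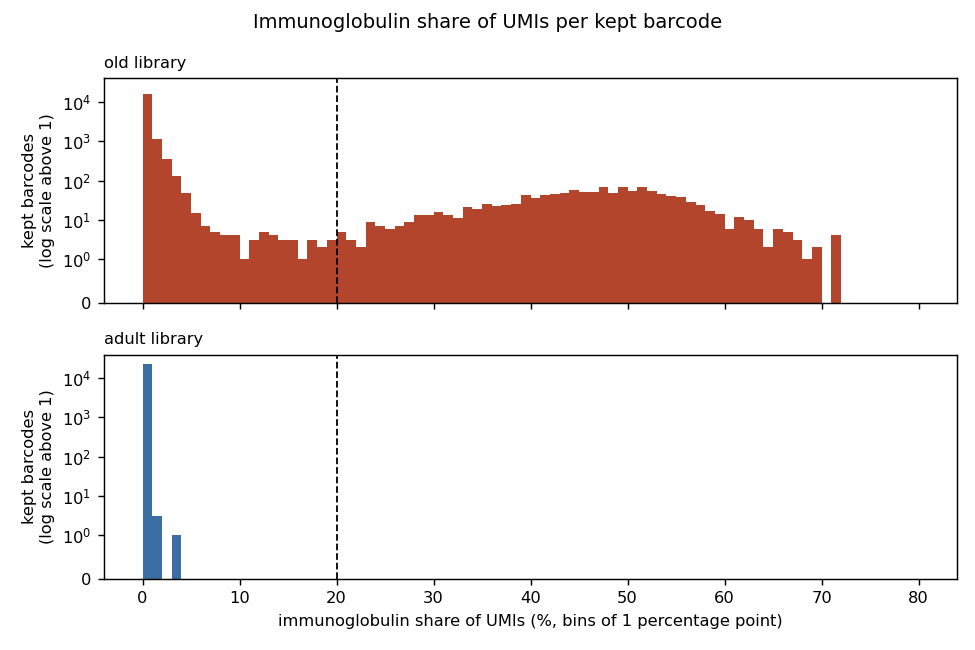
Number of kept barcodes (log scale above 1) by the immunoglobulin share of their UMIs, in bins of 1 percentage point, for the old library and the adult library. Old barcodes split into a group near 0 and the plasma cells around the median of 47.0%, while the highest adult barcode was at 3.06%.

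Of the 5 plasma cell markers, 4 were plain in these cells. Jchain, which links IgM and IgA into polymers, was at 4900 CPM in plasma cells and 28.5 CPM in the other old barcodes. Xbp1, the transcription factor of the secretory programme, was at 1981 CPM in plasma cells and 109 CPM in the other old barcodes. Derl3, which helps retract misfolded proteins from the ER, was at 271 CPM in plasma cells and 2.14 CPM in the other old barcodes. Sdc1 (CD138), the surface proteoglycan by which plasma cells are commonly sorted, was at 270.2 CPM in plasma cells and 62.5 CPM in the other old barcodes. A UMI of it was held by 90.8% of plasma cells and 46.4% of Cxcl12 cells, and after thinning by 39.2% of plasma cells and 15.3% of Cxcl12 cells. The exception was Mzb1, an ER chaperone partner of immunoglobulin heavy chains, with 108 UMIs in all 1258 cells (4.45 CPM) and a UMI in 8.11% of them. The gene annotation used for counting is not given in the sources used here, and its part in this low value was not tested. At least 3 of the 5 markers were detected in 1223 of the 1258 cells. Jchain, Xbp1, Derl3 and Mzb1 are part of the rule, so their levels are a description of the choice.

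Markers of most other cell types were lower in plasma cells than in the other old barcodes, and 3 marker lists were higher. Mature B cell markers came to 407 CPM in plasma cells and 6.85 CPM in the other old barcodes, nearly all of it Cd79b and Ms4a1, and 1 of 7 was at 0 in plasma cells. Plasmacytoid dendritic cell markers came to 2452.04 CPM in plasma cells and 258 CPM in the other old barcodes, and 1 of 6 was at 0 in plasma cells. Most of that sum was Ly6d, at 2232 CPM, and Bst2, at 215 CPM in plasma cells and 242 CPM in the other old barcodes, while Siglech, the defining receptor of those cells, had 1 UMI in all plasma cells. Eosinophil, basophil and mast cell markers came to 39.6 CPM in plasma cells and 7.66 CPM in the other old barcodes, with 3 of 6 at 0 in plasma cells, and nearly all was Prg2, a granule protein (39.4 CPM in plasma cells and 2.10 CPM in the other old barcodes). Summed markers of T and NK cells were at 0.247 CPM in plasma cells and 6.31 CPM in the other old barcodes, and 3 of 7 were at 0 in plasma cells. B cell precursor markers came to 682 CPM in plasma cells and 2657 CPM in the other old barcodes, and 4 of 7 were at 0 in plasma cells. Nearly all of the sum in the other old barcodes came from 1 of the 7, so it does not show the set as a whole. Markers of Cxcl12-rich stromal cells came to 1678 CPM in plasma cells and 13139 CPM in the other old barcodes, with 33 plasma cells above 100 UMIs per 10000 non-immunoglobulin UMIs. Erythroid markers (1149 CPM in plasma cells and 9455 CPM in the other old barcodes) and neutrophil markers (182 CPM in plasma cells and 1300 CPM in the other old barcodes) sat mainly in a few barcodes, since 5 plasma cells held 72.4% of the erythroid and 83.5% of the neutrophil UMIs. No doublet caller was run, and the part of these RNAs in the values below was not tested except where a value without those cells is given.

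Across the 4590 genes counted (at least 50 CPM and 50 UMIs on the higher side, immunoglobulin genes left out), 650 (14.2%) were at least 2-fold higher in plasma cells than in the other old barcodes, and 1790 (39.0%) were lower by as much. The median log2 ratio of all counted genes was -0.67. The same cells were chosen by immunoglobulin and 4 markers, and all genes were read from the cells so chosen, so these ratios describe the plasma cells and carry no test.

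Among genes at least 4-fold above the other old barcodes, the most abundant transcript outside immunoglobulin was Slpi, secretory leukocyte protease inhibitor. It made up 55784 CPM of the plasma cells, against 321 CPM in the other old barcodes and 23.9 CPM in the adult library. Every plasma cell held it, from 12.3 to 3679 UMIs per 10000 non-immunoglobulin UMIs with a median of 509. Its log2 ratio was 7.44 (95% counting interval 7.43 to 7.45), and 96.0% of all old Slpi UMIs lay in plasma cells. After each cell was thinned to 2000 non-immunoglobulin UMIs, Slpi was still found in 100% of plasma cells, and in 43.3% of Cxcl12 cells. Its mean in the thinned plasma cells was 117 UMIs, near the 115 of Malat1.

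Cd74, the invariant chain that guides MHC class II molecules, was at 6180 CPM in plasma cells and 33.7 CPM in the other old barcodes. It ranged from 5.50 to 249 UMIs per 10000 with a median of 59.5, so no plasma cell lacked it. The class II genes did not accompany it in these sums. H2-Aa was at 0.658 CPM in plasma cells and 3.53 CPM in the other old barcodes, and Ciita, the class II transactivator, had 7 UMIs in all plasma cells together. H2-Ab1 was at 11.5 CPM in plasma cells and 8.42 CPM in the other old barcodes.

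A group of small glycolipid-anchored surface proteins of the Ly6 family ranked among the most abundant transcripts. Ly6k was at 3953 CPM in plasma cells and 26.9 CPM in the other old barcodes. Ly6c2 was at 3895 CPM in plasma cells and 28.4 CPM in the other old barcodes. Ly6d was at 2232 CPM in plasma cells and 13.1 CPM in the other old barcodes. Ly6a (Sca-1), a marker of stem and activated lymphoid cells, was at 1773 CPM in plasma cells and 44.8 CPM in the other old barcodes. They were spread differently over the cells. Ly6c2 and Ly6d were found in 99.4% and 98.5% of plasma cells and Ly6a in 94.8%, but Ly6k only in 82.7%, with a range from 0 to 242 UMIs per 10000 and a median of 43.0. In Cxcl12 cells the shares with a UMI were 15.3%, 8.65%, 17.6% and 18.4% in the same gene order, at median depths of 34418 UMIs in plasma cells and 7984 in Cxcl12 cells. Cd52, another small glycolipid-anchored protein of lymphocytes, was at 3885 CPM in plasma cells and 33.5 CPM in the other old barcodes.

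**Figure D2:**
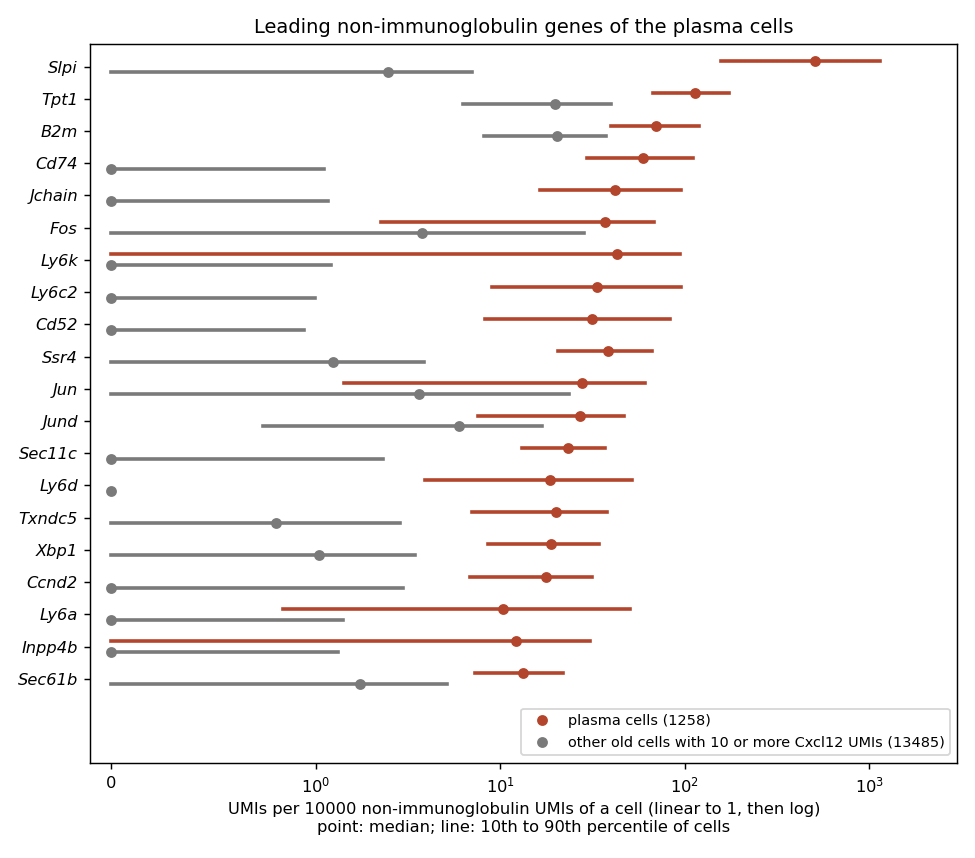
UMIs per 10000 non-immunoglobulin UMIs of a cell (linear to 1, then log) for the 20 most abundant genes at least 4-fold above the other old barcodes, in plasma cells and in Cxcl12 cells of the old library. Points are medians and lines run between the 10th and 90th percentiles of cells. Slpi stands apart at a median of 509, and the line of Ly6k reaches down to 0.

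Most of the regulators of the plasma cell state were higher in these cells. Of 20 regulators, all counted, 13 were at least 2-fold higher, with 1 at least 2-fold lower (median log2 ratio 1.47). The shares over all counted genes were 14.2% and 39.0%. Irf4, which drives the switch out of the B cell state, was at 708 CPM in plasma cells and 6.404 CPM in the other old barcodes. Prdm1 (Blimp), the repressor that ends the B cell programme, was at 289 CPM in plasma cells and 4.71 CPM in the other old barcodes. Pou2af1, the B cell coactivator OBF1, was at 687 CPM in plasma cells and 5.29 CPM in the other old barcodes. All of these were low elsewhere in the old library. Ikzf3 (Aiolos), a zinc finger factor of the lymphoid lineages, was at 193 CPM in plasma cells and 2.32 CPM in the other old barcodes. Ccnd2, a D-type cyclin, was at 1934 CPM in plasma cells and 118 CPM in the other old barcodes. Inpp4b, a phosphoinositide phosphatase, was at 1624 CPM in plasma cells and 45.8 CPM in the other old barcodes. Inpp4b varied widely, with UMIs in 85.1% of plasma cells and a highest value of 88.7 UMIs per 10000.

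Some receptors for the ligands that keep plasma cells alive were far higher than elsewhere in the old library. Of 16 survival and cytokine receptors, 9 were counted, and 5 were at least 2-fold higher in plasma cells, with 2 lower by as much. Over all counted genes the shares were 14.2% and 39.0%. Tnfrsf17 was at 119 CPM in plasma cells and 0.710 CPM in the other old barcodes (log2 ratio 7.39, 95% counting interval 7.13 to 7.66). A UMI of it was found in 66.1% of plasma cells and 0.564% of Cxcl12 cells, and after thinning to 2000 UMIs in 20.9% of plasma cells and 0.168% of Cxcl12 cells. Tnfrsf13b (TACI), which binds the same ligands, was at 391 CPM in plasma cells and 3.16 CPM in the other old barcodes. Tnfrsf13c, the BAFF receptor, was at 89.5 CPM in plasma cells and 0.795 CPM in the other old barcodes. The list's median log2 ratio was 3.67, and -1.51 when immunoglobulin UMIs were kept in the total, which also changes which genes are counted. It was 1.84 when genes down to 10 UMIs were counted.

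Surface proteins beyond the classic set also led the ratios. Of 28 surface molecules 18 were counted, with 12 at least 2-fold higher, 3 at least 2-fold lower and a median log2 ratio of 2.84. All counted genes had shares of 14.2% and 39.0%. When genes down to 10 UMIs were counted, the median of the list became 1.05. Cldn7, a tight junction claudin of epithelia, had the highest ratio among the genes ranked, at 362 CPM in plasma cells and 1.70 CPM in the other old barcodes (log2 7.74, 95% counting interval 7.57 to 7.91). Epcam, an epithelial adhesion molecule that binds claudins, was at 768 CPM in plasma cells and 5.36 CPM in the other old barcodes and was found in 98.2% of plasma cells. Slamf7, a receptor of plasma cells and NK cells, was at 579 CPM in plasma cells and 3.30 CPM in the other old barcodes. Cd274 (PD-L1) was at 995 CPM in plasma cells and 16.6 CPM in the other old barcodes. Cd38, an ectoenzyme, went the other way, with 4 UMIs in all plasma cells, at 0.165 CPM in plasma cells and 3.11 CPM in the other old barcodes.

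Part of the B cell programme was retained and part was at or near 0. Of 30 genes 11 were counted, 8 of them at least 2-fold higher, with 3 at least 2-fold lower (median log2 ratio 5.98), where all counted genes had 14.2% and 39.0%. When genes down to 10 UMIs were counted, the median became -0.07. Cd79b, a signalling chain of the B cell receptor, was at 298 CPM in plasma cells and 2.08 CPM in the other old barcodes. Ms4a1 (CD20) was at 108 CPM in plasma cells and 0.834 CPM in the other old barcodes. Blnk, the adaptor behind the receptor, was at 479 CPM in plasma cells and 5.204 CPM in the other old barcodes. Pax5, the factor that holds B cell identity, had 0 UMIs in the plasma cells and 127 in the other old barcodes. Ebf1, a B lineage factor that stromal cells also express, was at 595 CPM in plasma cells and 2654 CPM in the other old barcodes.

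Homing and adhesion genes were mixed. Of 22 genes 6 were counted, with 3 at least 2-fold higher and 3 lower by as much, against 14.2% and 39.0% of all counted genes. Itgal, the LFA-1 integrin chain, was at 184 CPM in plasma cells and 4.72 CPM in the other old barcodes. Itga4, a VLA-4 chain that binds VCAM-1, was at 313 CPM in plasma cells and 48.9 CPM in the other old barcodes. Itgb1, its partner chain, was at 128 CPM in plasma cells and 526 CPM in the other old barcodes. Cxcr4 was low but widely detected, at 43.5 CPM in plasma cells and 3.74 CPM in the other old barcodes, with a UMI in 45.5% of plasma cells and 1.16% of Cxcl12 cells (6.63% of plasma cells and 0.237% of Cxcl12 cells after thinning). It lay under the 50 CPM minimum and was not counted. S1pr1, the receptor for exit to blood, was at 12.4 CPM in plasma cells and 99.0 CPM in the other old barcodes.

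Among the other genes with the highest ratios were Oosp1 (323 CPM in plasma cells and 2.02 CPM in the other old barcodes), Dcaf8l (214 CPM in plasma cells and 1.39 CPM in the other old barcodes), Ermn (173 CPM in plasma cells and 1.26 CPM in the other old barcodes), Cyp2b10 (259 CPM in plasma cells and 1.92 CPM in the other old barcodes) and the nonclassical MHC gene H2-M10.1 (499.9 CPM in plasma cells and 3.86 CPM in the other old barcodes). Ctss, a lysosomal protease that cuts the invariant chain in antigen-presenting cells, was at 412 CPM in plasma cells and 4.03 CPM in the other old barcodes.

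Most counted genes of ER entry, ER folding and ER-associated degradation were at least 2-fold higher in plasma cells, and fewer of ER to Golgi transport and N-glycosylation were. Entry into the ER had 14 of 23 counted genes at least 2-fold higher (median log2 ratio 1.54), ER folding 17 of 30 (1.23) and ER-associated degradation 14 of 20 (1.76), and in each none was at least 2-fold lower. The 14 degradation genes include Derl3, which belongs to the rule. Among all counted genes 14.2% were at least 2-fold higher and 39.0% lower. ER to Golgi transport had 12 of 33 (0.79) and N-glycosylation 9 of 22 (0.47), again with none lower. With immunoglobulin kept in the total, the median of all counted genes moved from -0.67 to -1.64, and the last 2 lists' medians to -0.20 and -0.44.

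In the entry step, Ssr4, a subunit of the translocon-associated complex, was at 3860 CPM in plasma cells and 194 CPM in the other old barcodes. Sec11c, the catalytic chain of signal peptidase, was at 2293 CPM in plasma cells and 114 CPM in the other old barcodes. Sec61b, of the channel itself, was at 1338 CPM in plasma cells and 281 CPM in the other old barcodes. These were among the 20 most abundant of the ranked genes at least 4-fold above the other old barcodes. The folding genes had a wide range of ratios. Txndc5, a disulfide isomerase, was at 2156 CPM in plasma cells and 98.0 CPM in the other old barcodes. Ero1b, an oxidase that recharges such isomerases, was at 423 CPM in plasma cells and 12.3 CPM in the other old barcodes. Creld2, an ER disulfide enzyme, was at 703 CPM in plasma cells and 33.3 CPM in the other old barcodes. Pdia6, another disulfide isomerase, was at 751 CPM in plasma cells and 351 CPM in the other old barcodes. The chaperones Hsp90b1, Hspa5, Calr and Canx had lower ratios than Txndc5, Ero1b and Creld2. Hsp90b1 (GRP94) was at 2666 CPM in plasma cells and 703 CPM in the other old barcodes. Hspa5 (BiP) was at 1526 CPM in plasma cells and 885 CPM in the other old barcodes. Calr, the lectin chaperone calreticulin, was at 698 CPM in plasma cells and 561 CPM in the other old barcodes. Canx, calnexin, was at 221 CPM in plasma cells and 316 CPM in the other old barcodes. Pdia3, a disulfide isomerase of glycoproteins, was at 246 CPM in plasma cells and 302 CPM in the other old barcodes.

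Degradation had Edem1, which marks misfolded glycoproteins, at 1001 CPM in plasma cells and 43.97 CPM in the other old barcodes. Sel1l, the scaffold of the retrotranslocation ligase, was at 1100 CPM in plasma cells and 99.3 CPM in the other old barcodes. Its ligase partner Syvn1 was at 100.5 CPM in plasma cells and 17.96 CPM in the other old barcodes. Downstream steps had single high members. Fut8, which adds core fucose to antibody sugars, was at 804 CPM in plasma cells and 138 CPM in the other old barcodes. Krtcap2 of the oligosaccharyltransferase was at 986 CPM in plasma cells and 194 CPM in the other old barcodes. The cargo receptor Tmed10 was at 923 CPM in plasma cells and 281 CPM in the other old barcodes.

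The sensors of ER stress were higher, while the death factor Ddit3 was near the level of the other old barcodes. Of 17 unfolded protein response genes counted, 10 were at least 2-fold higher, with none at least 2-fold lower (median log2 ratio 1.79). Over all counted genes the shares were 14.2% and 39.0%. When genes down to 10 UMIs were counted, the median of the list became 1.02. Ern1 (IRE1), the sensor that splices Xbp1, was at 656 CPM in plasma cells and 55.9 CPM in the other old barcodes. Atf6, the sensor that is cut in the Golgi, was at 580 CPM in plasma cells and 106 CPM in the other old barcodes. Eif2ak3 (PERK), the kinase that slows translation, was at 331 CPM in plasma cells and 39.95 CPM in the other old barcodes. All 3 sensors were thus higher in plasma cells. Herpud1, a degradation factor induced by the response, was at 998 CPM in plasma cells and 74.3 CPM in the other old barcodes. On the PERK side, Atf4 was at 141 CPM in plasma cells and 107 CPM in the other old barcodes. Ddit3 (CHOP) was at 28.5 CPM in plasma cells and 30.2 CPM in the other old barcodes, below the 50 CPM minimum. Chac1, a glutathione-degrading target of that pathway, was at 53.1 CPM in plasma cells and 0.507 CPM in the other old barcodes.

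**Figure D3:**
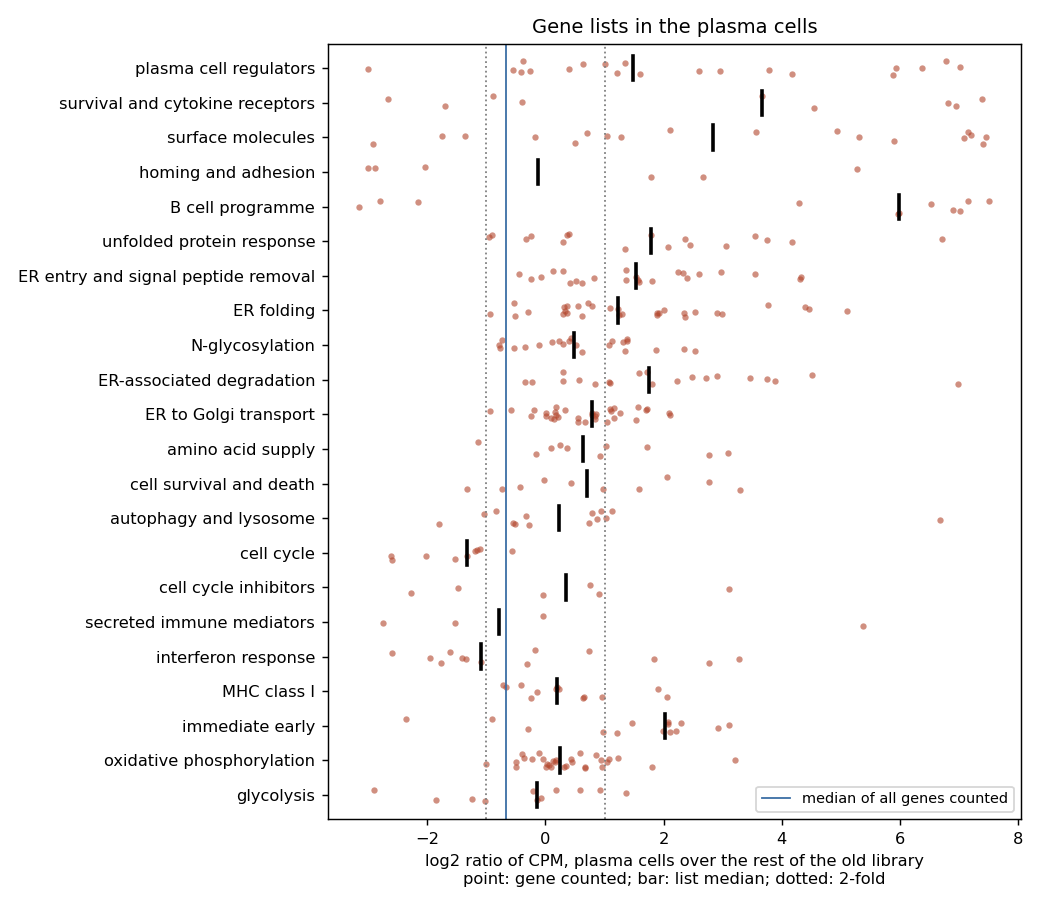
Log2 ratio of CPM, plasma cells over the other barcodes of the old library, for each counted gene (point) of 22 gene lists, with the list's median (bar), the median of all counted genes (blue line, -0.67) and the 2-fold lines (dotted). The ER entry, folding, degradation and unfolded protein response lists hold no gene beyond 2-fold lower, while the cell cycle list lies mostly below 0.

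The promoters of some of these genes hold the ER stress response element (ERSE, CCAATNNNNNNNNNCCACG), the motif to which ATF6 and XBP1 bind with NF-Y in stress-induced genes. RefSeq windows of 300 bases around the start sites (build GRCm38.p6, whereas the counts are on GRCm39) were searched on both strands. The element was in 39 of 32851 windows, or 0.119%, and in 37 of the 27025 genes with a window, or 0.137%. Of the secretory genes matched to a window, it was in 6 of 63 that were at least 2-fold higher in plasma cells (9.52%) and 4 of 57 that were not (7.02%). The 6 include Derl3, a gene of the rule. The shorter ERSE-II (ATTGGNCCACG) was in 3 of 63 and 0 of 57, and the XBP1 motif UPRE (TGACGTGG) in 3 of 63 and 4 of 57. Over all genes with a window the shares were 0.0444% for ERSE-II and 0.714% for UPRE. The 250 bases before the start site are shown for 3 of the higher genes and for Derl3, which belongs to the rule, to show the element in genes with different ratios. Letters in capitals mark the 2 ends of each element, CCAAT and CCACG or their reverse complements, and all run 5′ to 3′ on the gene's strand. The stretches are chr10:86705445-86705694 (minus strand), chr15:88819396-88819645 (plus strand), chr13:12565633-12565882 (plus strand) and chr10:75893148-75893397 (plus strand).
Hsp90b1: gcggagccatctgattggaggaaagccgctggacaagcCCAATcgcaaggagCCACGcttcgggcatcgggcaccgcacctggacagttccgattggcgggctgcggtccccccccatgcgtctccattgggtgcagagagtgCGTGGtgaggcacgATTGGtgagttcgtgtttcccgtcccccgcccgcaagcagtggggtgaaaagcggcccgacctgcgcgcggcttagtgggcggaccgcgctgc
Creld2: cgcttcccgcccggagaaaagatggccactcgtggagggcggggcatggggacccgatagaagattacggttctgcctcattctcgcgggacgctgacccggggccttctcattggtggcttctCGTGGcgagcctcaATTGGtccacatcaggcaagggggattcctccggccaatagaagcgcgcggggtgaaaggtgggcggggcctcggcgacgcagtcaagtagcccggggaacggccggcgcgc
Ero1b: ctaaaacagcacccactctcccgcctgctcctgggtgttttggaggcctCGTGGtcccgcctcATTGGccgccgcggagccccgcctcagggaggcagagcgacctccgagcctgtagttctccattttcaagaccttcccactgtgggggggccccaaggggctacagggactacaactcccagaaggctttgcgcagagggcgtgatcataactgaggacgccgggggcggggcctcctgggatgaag
Derl3: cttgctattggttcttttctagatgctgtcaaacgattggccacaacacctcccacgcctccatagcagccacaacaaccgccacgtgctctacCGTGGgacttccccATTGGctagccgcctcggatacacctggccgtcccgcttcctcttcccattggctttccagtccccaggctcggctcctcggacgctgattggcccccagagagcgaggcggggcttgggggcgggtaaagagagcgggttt
Hsp90b1 holds 2 elements in opposite orientations and had a log2 ratio of 1.92, while the others hold 1 each, with log2 ratios of 4.40 for Creld2, 5.10 for Ero1b and 6.98 for Derl3. A match is a match of letters and says nothing of binding in these cells.

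Amino acid supply had 4 of 10 counted genes at least 2-fold higher, with 1 at least 2-fold lower. Slc3a2, the heavy chain of the large neutral amino acid exchanger, was at 710 CPM in plasma cells and 83.5 CPM in the other old barcodes. Its light chain Slc7a5 was at 170 CPM in plasma cells and 24.8 CPM in the other old barcodes. Among survival and death genes 4 of 10 were at least 2-fold higher, with 1 at least 2-fold lower. Their median log2 ratio was 0.70, and -0.22 when genes down to 10 UMIs were counted. Mcl1, on which plasma cell survival is known to depend, was at 729 CPM in plasma cells and 107 CPM in the other old barcodes. Pim1, a survival kinase, was at 945 CPM in plasma cells and 95.9 CPM in the other old barcodes. Bcl2, another survival factor, was at 81.6 CPM in plasma cells and 136 CPM in the other old barcodes. Of all counted genes 14.2% were at least 2-fold higher and 39.0% lower by as much. Oxidative phosphorylation had 5 of 30 genes at least 2-fold higher, near the share of all genes, and 1 lower by as much. Ndufa1, of complex I, was at 943 CPM in plasma cells and 101 CPM in the other old barcodes. Glycolysis had 1 of 11 higher and 4 lower by at least 2-fold, the latter near the share of all genes. Pkm, a pyruvate kinase, was at 134.5 CPM in plasma cells and 52.2 CPM in the other old barcodes. Ldha, lactate dehydrogenase, was at 57.0 CPM in plasma cells and 206 CPM in the other old barcodes.

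The immediate early genes were high. Of 14 counted, 10 were at least 2-fold higher, with 1 at least 2-fold lower (median log2 ratio 2.03). All counted genes had shares of 14.2% and 39.0%. With genes down to 10 UMIs counted, the median of the list became 1.09. Fos was at 4019 CPM in plasma cells and 815 CPM in the other old barcodes. Jun was at 3337 CPM in plasma cells and 725 CPM in the other old barcodes. Fos ranged over plasma cells from 2.24 UMIs per 10000 at the 10th percentile to 68.3 at the 90th. Egr1 went the other way, at 464 CPM in plasma cells and 868 CPM in the other old barcodes. The adult library had 2276 CPM of Fos over all its kept barcodes, which is above the old non-plasma level, and the part of tissue handling in these levels was not tested.

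Cell cycle genes were low against the other old barcodes, and that direction depended on the cells set beside them. None of 9 counted was at least 2-fold higher and 8 were at least 2-fold lower (median log2 ratio -1.32). For this list and the next 2, the shares over all counted genes were 14.2% higher and 39.0% lower. Against Cxcl12 cells the median was 0.03, and against the kept adult barcodes it was 0.45. Mki67, a proliferation marker, was at 101 CPM in plasma cells, 149.8 CPM in the other old barcodes and 44.6 CPM in Cxcl12 cells. Its 90th percentile over plasma cells was 1.40 and its highest value 61.2 UMIs per 10000. Btg2, which restrains division, was at 1043 CPM in plasma cells and 120 CPM in the other old barcodes. Cdkn1a (p21) was at 28.2 CPM in plasma cells and 79.1 CPM in the other old barcodes. Interferon response genes had 3 of 13 at least 2-fold higher and 7 lower by as much (median log2 ratio -1.09, and 0.54 against the adult barcodes). Zbp1, a nucleic acid sensor, was at 246 CPM in plasma cells and 25.3 CPM in the other old barcodes. Isg15, a ubiquitin-like modifier, was at 25.7 CPM in plasma cells and 65.3 CPM in the other old barcodes. Of 22 secreted immune mediators 4 were counted, with 1 at least 2-fold higher and 2 lower by as much (median log2 ratio -0.78). The higher gene was the cytokine Il10, which was at 50.5 CPM in plasma cells and 1.22 CPM in the other old barcodes. MHC class I genes had 2 of 13 at least 2-fold higher, near the 14.2% of all counted genes, with none at least 2-fold lower.

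Plasma cell genes outside the plasma cells were set beside the immunoglobulin RNA found there. Igkc averaged 11160 UMIs per plasma cell and 20.04 UMIs per Cxcl12 cell. Per 1000 Igkc UMIs, Cd74 stood at 10.7 UMIs in plasma cells, 12.5 in Cxcl12 cells, 10.3 in barcodes rich in haemoglobin and 9.37 in those rich in megakaryocyte RNA. Jchain stood at 8.48, 12.0, 9.49 and 11.8 in the same order, and Ly6k at 6.84, 11.9, 12.5 and 9.06. Slpi stood at 96.5, 135, 132 and 219. Ssr4, which other cells also express, stood at 6.68, 75.1, 28.7 and 71.0. How much of these UMIs outside the plasma cells was free RNA and how much was expressed there was not tested.

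Plasma cells also differed among themselves. In 1236 cells thinned to 2000 non-immunoglobulin UMIs, 22 shallower cells being left out, 158 of 1326 genes had a variance of at least 2 times their mean. The haemoglobin gene Hbb-bs was highest at 234 times, with 74.6% of its UMIs in 5 cells. Outside haemoglobin genes Slpi had the largest excess after S100a9, with a variance 59.96 times its mean of 117 UMIs. Below Slpi came Malat1 at 46.5 times, the collagen gene Col1a2 at 30.7, Tmsb4x at 24.9 and Spp1 at 23.2. Mgp was at 12.4 times, Csmd1 at 11.9, Jchain at 11.6, Cd52 at 9.09 and Ly6c2 at 9.06. The metallothionein Mt1 was at 8.85 times, Igfbp5 at 8.33, Ly6a at 6.93, Ly6k at 6.77 and Hsp90b1 at 5.96. Ctxnd1 was at 5.86 times, Cxcl12 at 5.57, Ly6d at 5.49 and Tmx4 at 5.01. In Col1a2 and Spp1 5 cells held 45.5% and 48.6% of the UMIs. The part of RNA from other cells in this variation was not tested. S100a9, a neutrophil protein, was at 140 times, and 5 cells held 86.9% of its UMIs. It was 1 of 5 genes of the 158 in which 5 cells held at least 50%.

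The heavy chain variable gene Ighv1-54 divided the plasma cells. At least 10 UMIs of it were found in 925 cells (73.5%, exact binomial 95% interval 71.0 to 75.9%), 1 to 9 in 67 cells (5.33%) and 0 in 266 cells (21.1%). Depth was similar, with medians of 18215 non-immunoglobulin UMIs in the Ighv1-54 cells and 17859.5 in the cells with 0. By their constant region 1249 of all 1258 cells were IgG, 6 IgM and 1 IgA, and 2 were not assigned. Ighg2b led in 913 of the 925 Ighv1-54 cells, and in 198 of the 266 cells with 0, where Ighg2c led in 56 and Ighg1 in 7. At least 10 UMIs of the light chain gene Igkv12-44 were found in 909 of the 925 and in 5 of the 266. How many mice contributed these cells is not known here.

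Outside immunoglobulin the Ighv1-54 cells and the cells with 0 differed by under 2-fold for most genes. Of 2922 genes counted, 35 (1.20%) were at least 2-fold higher in Ighv1-54 cells, with 32 (1.10%) at least 2-fold lower, and the median log2 ratio was 0.05. Of the 20 plasma cell regulators none reached 2-fold in either direction. ER folding had 1 of 30 counted genes at least 2-fold lower, which was Fkbp11, and none higher by as much. No counted gene reached 2-fold in the lists of ER entry, N-glycosylation, degradation, ER to Golgi transport, oxidative phosphorylation and the B cell programme. Slpi was at 53112 CPM in Ighv1-54 cells and 63770.0 CPM in cells with 0. Cd74 was at 5959 CPM in Ighv1-54 cells and 6863 CPM in cells with 0.

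Ly6k was the abundant gene that set them apart. It was at 5143 CPM in Ighv1-54 cells, 514 CPM in cells with 1 to 9 Ighv1-54 UMIs and 359 CPM in cells with 0 (log2 ratio of the outer groups 3.84, 95% counting interval 3.77 to 3.91). A UMI of it was found in 98.3% of Ighv1-54 cells, 39.5% of cells with 0 and 18.4% of Cxcl12 cells. Single cells overlapped, with a median of 54.2 and a highest value of 242 UMIs per 10000 in Ighv1-54 cells, against 0 and 59.8 in cells with 0.

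Several other genes were higher in a fraction of the Ighv1-54 cells. Lsamp, a neuronal adhesion protein, was at 281 CPM in Ighv1-54 cells and 7.12 CPM in cells with 0 (log2 5.30, 95% counting interval 4.82 to 5.83), with UMIs in 34.4% of Ighv1-54 cells, 6.39% of cells with 0 and 1.51% of Cxcl12 cells. Dcaf8l, named for likeness to a ubiquitin ligase adaptor, was at 280.0 CPM in Ighv1-54 cells and 15.9 CPM in cells with 0 (log2 4.14), with UMIs in 57.3% of Ighv1-54 cells, 9.40% of cells with 0 and 0.764% of Cxcl12 cells. Tmed6, of the cargo receptor family, was at 234 CPM in Ighv1-54 cells and 14.2 CPM in cells with 0. The endocytic receptor Lrp1b was at 146 CPM in Ighv1-54 cells and 16.3 CPM in cells with 0. These levels were all far below that of Ly6k. Wdr49 was at 240.0 CPM in Ighv1-54 cells and 39.6 CPM in cells with 0. Ctxnd1 was at 556 CPM in Ighv1-54 cells and 106 CPM in cells with 0. The phosphatase Ppm1l was at 588 CPM in Ighv1-54 cells and 186 CPM in cells with 0. Fhod3, a formin, was at 127 CPM in Ighv1-54 cells and 47.3 CPM in cells with 0. S100a9 had a log2 ratio of 3.49, but 5 cells held 89.5% of its UMIs in the Ighv1-54 cells, and the ratio was 0.81 in cells of 5000 to 20000 non-immunoglobulin UMIs. In those cells of middle depth Ctxnd1 had a log2 ratio of 3.81, against 2.39 in all, and Tmed6 3.27, against 4.04.

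Srgn and Cd28 were among the genes at least 2-fold lower in the Ighv1-54 cells. Srgn, the granule proteoglycan serglycin, was at 43.8 CPM in Ighv1-54 cells and 462 CPM in cells with 0 (log2 -3.40, 95% counting interval -3.52 to -3.28), with UMIs in 17.2% of Ighv1-54 cells, 69.9% of cells with 0 and 28.0% of Cxcl12 cells. Its log2 ratio was -5.20 in cells of 5000 to 20000 non-immunoglobulin UMIs. Cd28, a costimulatory receptor that also acts on plasma cells, was at 24.4 CPM in Ighv1-54 cells and 116 CPM in cells with 0 (log2 -2.25), with UMIs in 23.03% of Ighv1-54 cells, 50.8% of cells with 0 and 0.527% of Cxcl12 cells. Ly6a was at 1371 CPM in Ighv1-54 cells and 3016 CPM in cells with 0 (log2 -1.14). Il5ra, the interleukin 5 receptor chain, was at 32.3 CPM in Ighv1-54 cells and 95.3 CPM in cells with 0. Bcl2 was at 59.9 CPM in Ighv1-54 cells and 143 CPM in cells with 0. Ptpn22, a lymphocyte phosphatase, was at 53.6 CPM in Ighv1-54 cells and 138 CPM in cells with 0. The ER protein Fkbp11 was at 122 CPM in Ighv1-54 cells and 263 CPM in cells with 0. Each of these was detected in Ighv1-54 cells at a lower level, and none was at 0. The chaperone Hspb1 was at 29.4 CPM in Ighv1-54 cells and 175 CPM in cells with 0. The stress factor Atf3 was at 103 CPM in Ighv1-54 cells and 246 CPM in cells with 0. Cd28, Il5ra, Hspb1 and Atf3 were nonetheless higher in cells led by Ighv1-54 than in some of the groups by heavy V gene given below. For Cd28 the level was 24.2 CPM in cells led by Ighv1-54 and 235 CPM in those led by Ighv14-1. It was 21.1 CPM (17 UMIs) in Ighv1-55 cells and 18.9 CPM (9 UMIs) in Ighv1-7 cells. Abtb2 was at 30.9 CPM in Ighv1-54 cells and 122 CPM in cells with 0. Csn3, a casein gene, was at 38.5 CPM in Ighv1-54 cells and 148 CPM in cells with 0. Its log2 ratio was -1.95, and -3.87 in cells of 5000 to 20000 non-immunoglobulin UMIs. That of Abtb2 was -1.98, and -2.86 without the plasma cells above the 75th percentile of Cxcl12, Lepr and haemoglobin RNA.

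Some of the lower genes rested on few cells. Of the 32 lower genes 8, and of the 35 higher genes 2, had at least 50% of the higher side's UMIs in 5 cells. For Il1rapl2 (14.6 CPM in Ighv1-54 cells and 114 CPM in cells with 0) that share was 90.1%. Its log2 ratio was -2.97, and -3.82 without the 10% of plasma cells with the most UMIs. The collagen genes Col1a1 (34.0 CPM in Ighv1-54 cells and 372 CPM in cells with 0) and Col1a2 (89.5 CPM in Ighv1-54 cells and 396 CPM in cells with 0) had 93.5% and 85.0% in 5 cells. Without the plasma cells above the 75th percentile of Cxcl12, Lepr and haemoglobin RNA, the log2 ratio was -0.97 for Col1a1 and -0.86 for Col1a2, under 2-fold, against -3.45 and -2.15 with them. Erythroid marker RNA was at 963 CPM in Ighv1-54 cells and 2112 CPM in cells with 0. Osteolineage marker RNA was at 332 CPM in Ighv1-54 cells and 794 CPM in cells with 0. Plasmacytoid dendritic cell markers, mostly Ly6d, were at 2110 CPM in Ighv1-54 cells and 3486 CPM in cells with 0. Eosinophil, basophil and mast cell markers were at 23.7 CPM in Ighv1-54 cells and 93.2 CPM in cells with 0. Neutrophil markers went the other way, at 234 CPM in Ighv1-54 cells and 28.3 CPM in cells with 0, as did megakaryocyte markers, at 93.2 CPM in Ighv1-54 cells and 28.9 CPM in cells with 0. The part of these RNAs in the differences between the groups was not tested except as given for Col1a1 and Col1a2.

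**Figure D4:**
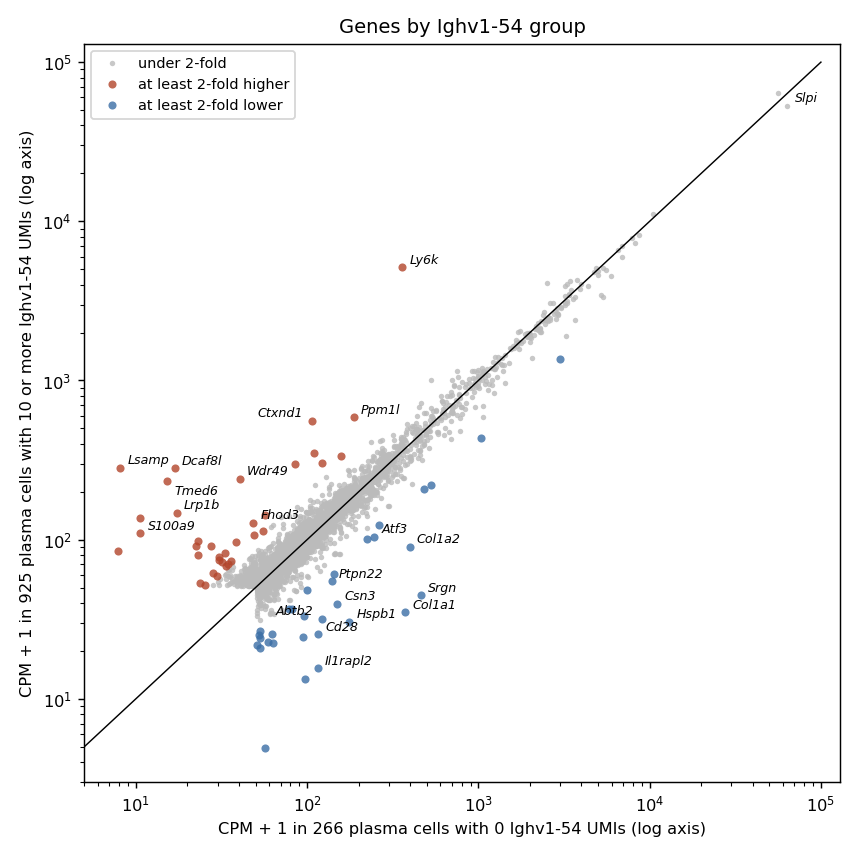
CPM + 1 of each counted gene (log axes) in the 925 plasma cells with at least 10 Ighv1-54 UMIs (vertical) against the 266 with 0 (horizontal). Most genes lie near the line of equality; Ly6k and Lsamp lie above it and Srgn below.

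The plasma cells fell into several groups by their heavy V gene. By the heavy V gene with the most UMIs, 917 plasma cells were led by Ighv1-54, 96 by Ighv14-1, 45 by Ighv1-15, 36 by Ighv1-55, 21 by Ighv1-7 and 143 by others or with fewer than 10 UMIs of every heavy V gene. Iglv1 was the first or second most frequent leading light chain V gene in each named group. In the Ighv1-54 group Igkv12-44 led in 791 of 917 cells and Iglv1 in 110. Iglv1 led in 78 of the 96 Ighv14-1 cells. In the 45 Ighv1-15 cells Igkv1-110 led in 29 and Iglv1 in 10. The 36 Ighv1-55 cells were split, with Igkv6-20 leading in 19 and Iglv1 in 17. Igkv15-103 led in 17 of the 21 Ighv1-7 cells and Iglv1 in 4. All 36 cells led by Ighv1-55 were led by Ighg2c.

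Ly6k was low in every named group but the Ighv1-54 cells. It was at 5167 CPM in cells led by Ighv1-54, 222 CPM in those led by Ighv14-1, 43.6 CPM in Ighv1-15, 12.4 CPM in Ighv1-55 and 23.1 CPM in Ighv1-7 cells. In the remaining 143 cells it was at 1110 CPM. Slpi had another order, at 53114 CPM in cells led by Ighv1-54, 96561 CPM in Ighv14-1, 59293 CPM in Ighv1-15, 81608 CPM in Ighv1-55 and 36036 CPM in Ighv1-7 cells, and 30725 CPM in the remainder. Srgn was at 42.1 CPM in Ighv1-54 cells and from 247 CPM (Ighv1-15) to 821 CPM (Ighv1-55) elsewhere.

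Other genes were highest in a single one of the smaller groups. Cd28 was at 235 CPM in the cells led by Ighv14-1, and between 18.9 and 70.6 CPM in all other groups. Those cells also had 361 CPM of Hspb1, with 498 CPM of Atf3. Atf3 was at 103 CPM in cells led by Ighv1-54, and lower in Ighv1-15 (16.2 CPM), Ighv1-55 (75.8 CPM) and Ighv1-7 cells (88.3 CPM). Hspb1 was at 29.5 CPM in cells led by Ighv1-54, 6.23 CPM in Ighv1-15, 12.4 CPM in Ighv1-55 and 101 CPM in Ighv1-7 cells. Il5ra was at 292 CPM in Ighv1-15 cells, against 124 CPM in Ighv1-7 cells and 63.7 CPM in Ighv14-1 cells. It was at 31.8 CPM in cells led by Ighv1-54, 23.6 CPM in Ighv1-55 cells and 70.6 CPM in the remainder. Cd274 ranged from 516 CPM in Ighv1-15 cells to 1583 CPM in Ighv1-55 cells. These groups were formed after their values were seen and have 1 library behind them, so the differences are descriptions.

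**Figure D5:**
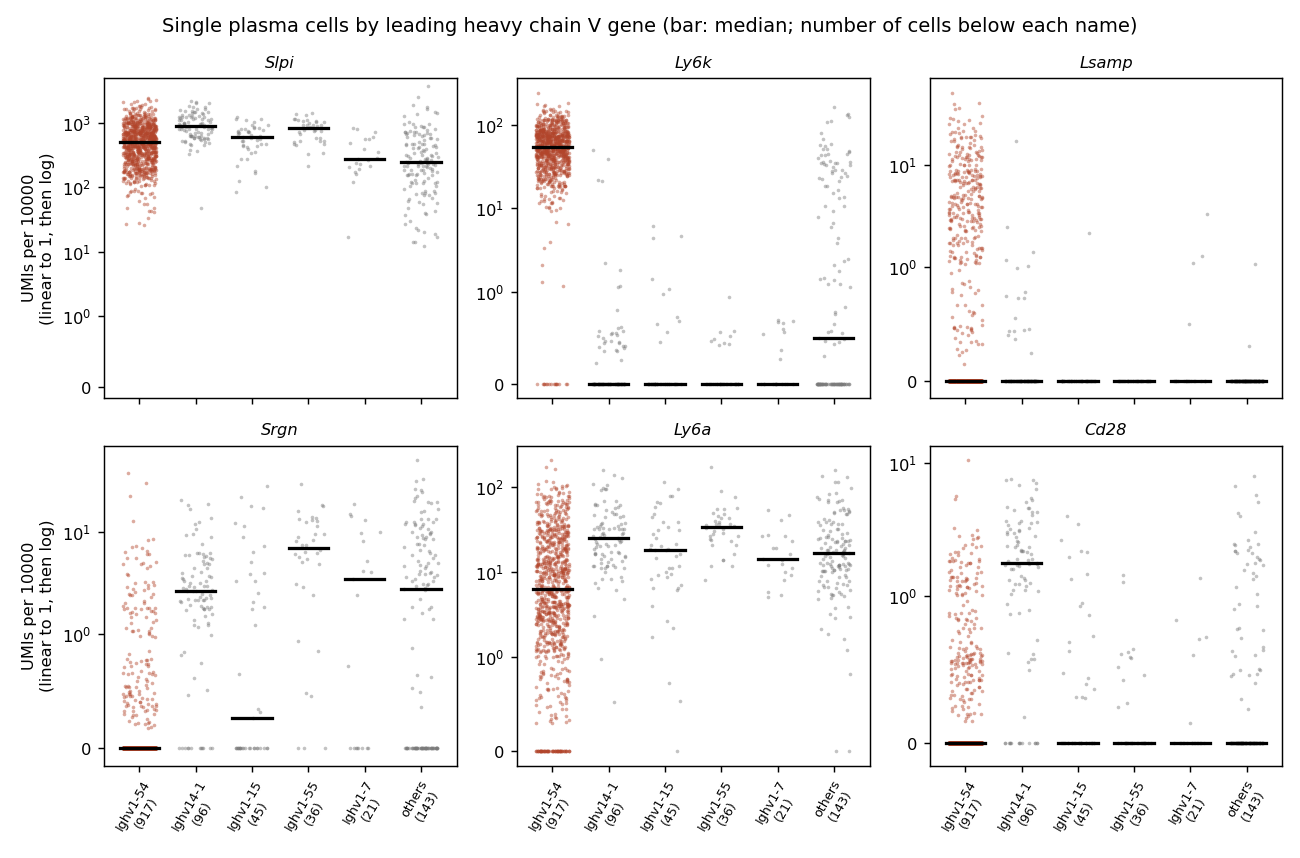
UMIs per 10000 non-immunoglobulin UMIs (linear to 1, then log) of 6 genes in single plasma cells, grouped by leading heavy V gene, with the median as a bar. Ly6k is high in the Ighv1-54 cells (median 54.3) and at a median of 0 in the 4 other named groups, while Slpi is high throughout.

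Within the 925 Ighv1-54 cells a further division was seen. At least 3 UMIs of Dcaf8l were found in 426 cells (46.1%) and 0 in 395. Lsamp reached 3 UMIs in 56.6% of the Dcaf8l cells and in 0.759% of the cells without it, Lrp1b in 42.5% of the Dcaf8l cells and 1.01% of the cells without it, and Wdr49 in 63.1% of the Dcaf8l cells and 5.57% of the cells without it. Ctxnd1 had the opposite pattern, reaching 3 UMIs in 14.1% of the Dcaf8l cells and 50.4% of the cells without it. Ly6k did not divide them, at 100% of the Dcaf8l cells and 95.4% of the cells without it. The Dcaf8l cells were deeper, at a median of 21664.5 non-immunoglobulin UMIs, against 15149 in the cells without Dcaf8l. Among cells of at least 10000 such UMIs, Lsamp reached 3 UMIs in 57.4% of the Dcaf8l cells and 1.13% of the cells without it. There Ctxnd1 did so in 14.4% of the Dcaf8l cells and 64.7% of the cells without it. Iglv1 was the leading light chain in 3.99% of the Dcaf8l cells and 22.5% of the cells without Dcaf8l. Both genes reached 3 UMIs in 60 cells, Dcaf8l alone in 366, Ctxnd1 alone in 227 and neither in 272. Ly6a reached 3 UMIs in 96.5% of the 287 Ctxnd1 cells and 69.5% of the cells with 0 Ctxnd1. The genes of this division were chosen after their values were seen.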

How the data were processed

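For each library the authors deposited raw UMI counts of each gene in each barcode. Per the file headers these counts came from Cell Ranger 7.0.1, and per the submitters' processing notes from build GRCm39. The annotation release is not given in the sources used here. Reads were not reprocessed, doublets were not removed, and 38 duplicated symbols were summed. The prefix rule also takes Ighmbp2, which is no immunoglobulin gene (130 UMIs in plasma cells).

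Levels are sums over cells per 1000000 non-immunoglobulin UMIs. A gene was counted with at least 50 CPM and 50 UMIs on the higher side, and called at 2-fold. Intervals are exact at 95% and cover counting error only, since cells of 1 library are not replicates. Thinning drew 2000 non-immunoglobulin UMIs per cell (seed 1). Only the comparisons of summed counts between groups were run on simulated counts, which held no variation between cells. Named genes were the 20 most abundant of those at least 4-fold above the other old barcodes, the 20 highest ratios, the 20 most variable, the 10 highest and 10 lowest by Ighv1-54 (at least 100 CPM and 100 UMIs for ratios), and members of 22 gene lists and 15 marker lists. Mitochondrial, ribosomal and haemoglobin genes and predicted genes were left out of those ranks. Of the genes so ranked, Tmsb4x, Spp1, Mgp, Csmd1, Igfbp5 and Tmx4 are described only by their variation among plasma cells. Malat1 is described by that and by its thinned mean. The members and lists were chosen with earlier results of these data known. A planned comparison of IgM with IgA cells was not made, with 6 IgM cells and 1 IgA cell. Tools were python 3.11.15, numpy 2.4.6, scipy 1.17.1 and pandas 2.3.3.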

Additional observations from a re-analysis of the deposited data

How the results depend on the processing

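The plasma cell count was 1258 as reported, 964 (5.08% of kept old barcodes) with an immunoglobulin share of at least 40%, and 1235 (7.24%) with at most 5% mitochondrial UMIs, and the adult count was 0 under every alternative run. Genes at least 2-fold higher in plasma cells were 650 as reported, 257 with immunoglobulin UMIs kept in the total and 2514 with no CPM minimum. Genes at least 2-fold lower were 1790 as reported, 3072 with immunoglobulin kept in the total, 3289 with a minimum of 20 CPM and 9765 with no minimum. Between Ighv1-54 cells and cells with 0, higher genes were 35 as reported, 17 with immunoglobulin in the total, 67 with a minimum of 20 CPM and 814 with none. Lower genes were 32 as reported, 77 with a minimum of 20 CPM and 500 with none. Genes with a variance of at least 2 times the mean were 158 as reported, 489 after thinning to 5000 UMIs and 102 with a mean of at least 0.5. The other 39 counts under alternatives stayed within 1.5 times, or within the interval of the share. Of the list medians of plasma cells over other barcodes, 123 stayed within 1.5 times under their alternatives and 47 moved further. With immunoglobulin in the total the median of all counted genes was -1.64 in place of -0.67. A median of at least 2-fold changed sign in 6, namely survival receptors with immunoglobulin in the total (-1.51), the B cell programme with no minimum (-0.0704), interferon response against adult barcodes (0.54), and the cell cycle genes when cells were given equal weight (0.0046), against Cxcl12 cells (0.0288) and against adult barcodes (0.45). The causes were not tested, but the first 2 alternatives change which genes are counted. Chosen after seeing the data, the Ighv1-54 comparison within cells led by Ighg2b gave 38 higher and 33 lower genes, and without genes that had 50% of their UMIs in 5 cells it gave 33 and 24. No paired analysis was possible because each age has 1 library and no result comes from a test. For the same reason no replicate could be left out. The alternatives for IgM against IgA cells were not run.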
